A study of Homo sapiens with 2 samples.

Results

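The genes described here encode ubiquitin-conjugating enzymes (symbols that open with UBE2) and F-box proteins (symbols that open with FBXO, FBXL or FBXW and a digit). They were chosen by symbol alone from the deposited expression table and the deposited table of skipped exons. They account for 11 of the 993 transcripts with a listed expression level, from 9 of 812 genes. In the table of skipped exons 257 of 35827 events belonged to them, from 69 of 9939 genes. GENCODE 44 holds 100 protein-coding genes whose symbols match, of which 9 had a listed transcript, 66 had a listed skipped exon, 6 had both and 31 had neither.

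The cells were A549, a human cell line from a non-small cell lung cancer (an adenocarcinoma). One group received paclitaxel (7.22 nM, 72 h), and the other was the control, which by the treatment protocol received DMSO. Paclitaxel is a taxane that stabilises microtubules and disturbs the mitotic spindle. Both groups came from the same line, grown in F12K medium with serum, and each was sequenced as 1 RNA library. A ratio below therefore compares 2 libraries, with no replicate check, no error and no p-value. In RNA from a whole culture, fewer cells of a type and less RNA per cell cannot be told apart.

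Ubiquitin is passed from an activating enzyme (E1) to a conjugating enzyme (E2, the UBE2 family) and then, with a ligase (E3), onto a protein that is often sent to the proteasome. F-box proteins are the substrate receptors of the SCF ligase, where SKP1 joins them to the cullin CUL1. FBXW proteins bind substrates through WD40 repeats, FBXL proteins through leucine-rich repeats, and FBXO proteins through other domains. In dividing cells the other main ligase is the anaphase-promoting complex or cyclosome (APC/C), which uses particular E2 enzymes and destroys cyclins and securin to end mitosis.

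Transcript levels are given as FPKM, which are fragments scaled by transcript length and by the number of mapped fragments, estimated by the authors with Cufflinks. A transcript is called higher or lower where the 2 libraries differed at least 2-fold. The table holds only transcripts that passed the authors' own test. The smallest fold among transcripts above 0 in both libraries was 2.87. The other 72 were listed at 0 in either library and have no fold, so every listed transcript counts as higher or lower. The 91 matching genes without a listed transcript have no level here. In the paclitaxel library 7 of the 11 member transcripts were lower and 4 were higher, where 53.9% of all 993 transcripts were lower and 46.1% were higher. By gene, 5 of 9 were lower and 4 were higher. On the log2(FPKM + 1) scale, which shrinks differences at low levels, the median difference was -1.85 over the 11 member transcripts and -1.31 over all transcripts of the table. With 1 transcript per gene, the most abundant in either library, it was -0.97 over the 9 member genes and -0.97 over all 812 genes. That member median is the value of FBXO43 alone, at 0.167 FPKM with paclitaxel and 1.28 FPKM with DMSO. With 5 lower and 4 higher genes it rests on that low-level transcript and does not show where the members lie. All 5 UBE2 transcripts, of 3 genes, were lower with paclitaxel. Of the 6 F-box transcripts, each of another gene, 2 were lower and 4 were higher, and no FBXL gene had a listed transcript.

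**Figure D1:**
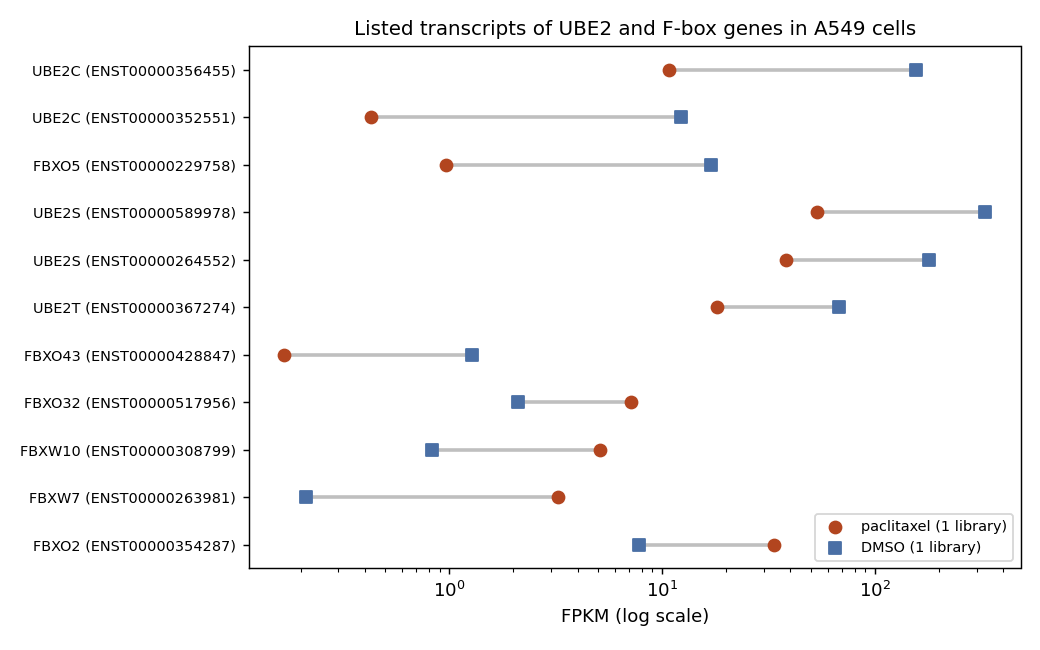
FPKM of the 11 listed member transcripts (log axis), with 1 point for the paclitaxel library and 1 for the DMSO library. The 7 lower transcripts include all 5 listed UBE2 transcripts, which are of 3 genes. The 4 higher transcripts are all of F-box genes, with FBXW7 at 3.24 FPKM with paclitaxel and 0.211 FPKM with DMSO.

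UBE2C, the E2 that starts ubiquitin chains on APC/C substrates, had 2 listed transcripts. The transcript ENST00000356455 (UBE2C-204, 6 exons, chr20:45812644-45816952 on the plus strand of hg38) had 10.7 FPKM in the paclitaxel library, against 155.5 FPKM in the DMSO library. The ratio was 14.5-fold lower, a log2 ratio of -3.86. The transcript ENST00000352551 (UBE2C-203, 5 exons) had 0.428 FPKM with paclitaxel and 12.3 FPKM with DMSO, which was 28.8-fold lower and the largest fold among the members. On the log2(FPKM + 1) scale the order was the reverse, with -3.74 for UBE2C-204 and -3.22 for UBE2C-203. Both transcripts were thus low with paclitaxel, and UBE2C-204 carried most of the listed level in either library. UBE2C-203 made up 3.84% of the gene's listed FPKM with paclitaxel and 7.33% with DMSO. Of the 665 bases of UBE2C-203, 660 (99.2%) also lie in UBE2C-204, so most reads could belong to either, and how the reads were shared out between them is uncertain. The listed level of the gene, summed over both, was 11.2 FPKM with paclitaxel and 167.8 FPKM with DMSO, a log2 ratio of -3.91.

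An exon of 87 bases, the 3rd of 6 in UBE2C-204, is absent from UBE2C-203. The transcripts also differ at their outer ends, with a first exon of 153 bases in UBE2C-204 and 123 bases in UBE2C-203, and a last exon of 244 bases in UBE2C-204 and 249 bases in UBE2C-203. The 87-base exon is coding, its length is divisible by 3, and the coding sequence is 537 bases in UBE2C-204 and 450 bases in UBE2C-203. The same exon is listed in the table of skipped exons, in 2 events. The gene's other listed exon, in 3 events, is 28 bases long, the shortest of all member exons, and its length is not divisible by 3. Both are shown from the hg38 genome because they are the stretches of this gene that the splicing table lists, with the bases absent from UBE2C-203 in capitals.
UBE2C exon at chr20:45814384-45814470 (+): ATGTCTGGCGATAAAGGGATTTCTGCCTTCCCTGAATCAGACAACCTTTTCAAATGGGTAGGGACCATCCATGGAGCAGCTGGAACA
UBE2C exon at chr20:45813437-45813464 (+): gctacagcaggagctgatgaccctcatg

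UBE2S, the E2 that extends chains on APC/C substrates after UBE2C has started them, was the most abundant member by FPKM in both libraries. The transcript ENST00000589978 (UBE2S-203) had 53.1 FPKM with paclitaxel and 329.5 FPKM with DMSO, which was 6.20-fold lower. The transcript ENST00000264552 (UBE2S-201, chr19:55399745-55407788 on the minus strand) had 38.1 FPKM with paclitaxel and 179.9 FPKM with DMSO, which was 4.73-fold lower. Summed over both, the gene had 91.2 FPKM with paclitaxel and 509.4 FPKM with DMSO, a log2 ratio of -2.48. The gene was therefore lower by either transcript, and it kept a higher level with paclitaxel than any other member had there. UBE2S-203 made up 58.3% of the listed FPKM with paclitaxel and 64.7% with DMSO. All 496 bases of UBE2S-203 lie within the 2559 bases of UBE2S-201, so the split between them is uncertain.

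Most of the difference in length lies in the last exon, of 2018 bases in UBE2S-201 and 49 bases in UBE2S-203, and the first exon is 202 bases in UBE2S-201 and 185 bases in UBE2S-203. The transcripts also differ at the start of the 3rd of their 4 exons, which is 191 bases in UBE2S-201 and 114 bases in UBE2S-203. The 77 bases at its 5′ end are absent from UBE2S-203, that number is not divisible by 3, and the annotated coding sequence is 666 bases in UBE2S-201 and 237 bases in UBE2S-203. Both forms of the exon are listed as skipped exons, beside a coding exon of 87 bases at chr19:55404061-55404147. The longer form is shown, with the 77 bases in capitals.
UBE2S exon at chr19:55404288-55404478 (-): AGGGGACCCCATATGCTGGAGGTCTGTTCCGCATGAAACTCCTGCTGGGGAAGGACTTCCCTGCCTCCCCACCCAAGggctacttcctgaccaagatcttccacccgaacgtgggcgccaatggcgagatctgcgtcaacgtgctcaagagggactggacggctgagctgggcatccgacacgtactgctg

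**Figure D2:**
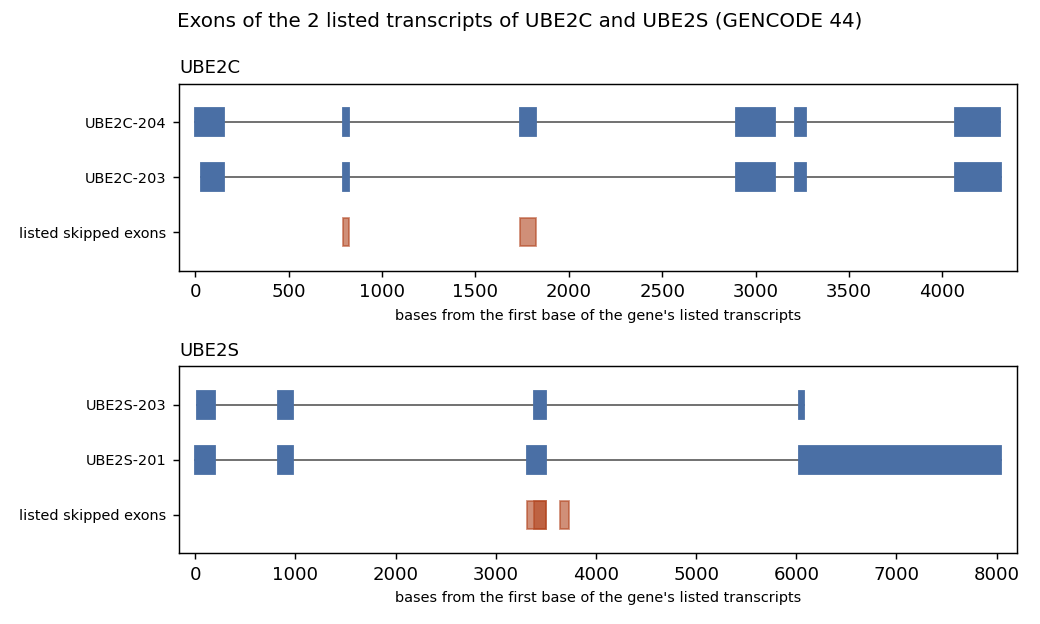
Exon layout of the listed transcripts of UBE2C and UBE2S, each drawn 5′ to 3′ by distance in bases along the gene, with exons as blue boxes, introns as lines and the listed skipped exons as red boxes. UBE2C-204 has 6 exons and UBE2C-203 has 5, the 87-base exon being absent from UBE2C-203, and exon 3 of UBE2S is 191 bases in UBE2S-201 and 114 bases in UBE2S-203.

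UBE2T is the E2 of the Fanconi anaemia pathway and attaches a single ubiquitin to FANCD2 and FANCI at DNA crosslinks. It lies at chr1:202331657-202341980 on the minus strand. Its listed transcript, ENST00000367274, had 18.1 FPKM with paclitaxel and 67.8 FPKM with DMSO. This was 3.75-fold lower, the smallest fold of the 7 lower member transcripts. The transcript was not found in GENCODE 44, so its exons are not described. The table of skipped exons lists 4 exons of the gene, of 70, 84, 99 and 326 bases. The exon of 326 bases spans the exons of 99 and 84 bases and the intron between them, and GENCODE 44 has it in UBE2T-201, UBE2T-202 and UBE2T-210. The exons of 99 and 84 bases have lengths divisible by 3, and the exon of 70 bases does not. The 99-base and 84-base exons are shown because the exon of 326 bases joins them.
UBE2T exon at chr1:202333237-202333335 (-): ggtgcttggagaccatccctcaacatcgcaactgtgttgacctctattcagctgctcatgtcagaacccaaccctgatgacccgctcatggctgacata
UBE2T exon at chr1:202333010-202333093 (-): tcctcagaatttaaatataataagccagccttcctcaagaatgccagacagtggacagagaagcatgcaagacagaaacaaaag

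FBXO5, known as EMI1, is an F-box protein that inhibits the APC/C from the start of S phase to early mitosis and so lets cyclins build up. Its transcript ENST00000229758 (5 exons, 1341 coding bases, chr6:152970535-152983041 on the minus strand) had 0.960 FPKM with paclitaxel and 17.0 FPKM with DMSO. It was 17.7-fold lower, a log2 ratio of -4.14, and its difference on the log2(FPKM + 1) scale was -3.20. Only UBE2C-203 had a larger fold among the members. No skipped exon of FBXO5 is listed.

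UBE2C, UBE2S, UBE2T and FBXO5 are known as genes of cycling cells, and elements known from such genes were searched in the 250 bases before each RefSeq transcription start (GRCh38.p14). The motifs, searched on both strands, were the NF-Y box (CCAAT), the CHR element (TTTGAA), the GC box (GGGCGG) and the E2F sites TTTGGCGC and TTTCCCGC. Of the 9 genes with a listed transcript 6 had promoters in the RefSeq table, with 10 starts in all. UBE2C, FBXO32 and FBXO43 had no promoter there and were not searched. Among all 35116 promoters of the table, 32.0% held CCAAT, 13.3% held TTTGAA, 42.6% held GGGCGG, 0.550% held TTTGGCGC and 1.39% held TTTCCCGC. The promoter of the listed FBXO5 transcript held 4 matches to CCAAT, at -141, -138, -98 and -68 from the start, of which those at -141 and -138 overlap on opposite strands. It also held TTTGAA at -40 and GGGCGG at -232. The other FBXO5 start, further upstream, held none of these motifs. UBE2T held TTTGAA at -153, CCAAT at -124 and -73, and GGGCGG at -48. UBE2S held CCAAT at -191 and GGGCGG at -36. FBXO2 held 3 GC boxes, FBXW7 held GC boxes at 3 of its 4 starts and TTTGAA at 1 of them, and FBXW10 held no match. Neither E2F site was found before any of the 10 starts. A match is a stretch of letters and not a measured binding site. The FBXO5 promoter (192 bases to the start, hg38) and the UBE2S promoter (250 bases) are shown because they lie before transcripts that were lower, with the motif matches in capitals.
FBXO5 promoter at chr6:152983042-152983233 (-): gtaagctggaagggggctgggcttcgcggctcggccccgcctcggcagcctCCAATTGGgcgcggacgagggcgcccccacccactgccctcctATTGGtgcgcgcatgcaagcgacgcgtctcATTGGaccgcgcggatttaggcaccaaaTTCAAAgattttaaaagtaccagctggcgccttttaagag
UBE2S promoter at chr19:55407789-55408038 (-): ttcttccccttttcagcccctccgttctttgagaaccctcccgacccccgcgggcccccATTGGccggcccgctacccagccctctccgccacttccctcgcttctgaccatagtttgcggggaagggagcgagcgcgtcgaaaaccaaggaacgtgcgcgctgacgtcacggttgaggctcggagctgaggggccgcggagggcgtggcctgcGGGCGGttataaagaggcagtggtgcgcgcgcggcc

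**Figure D3:**
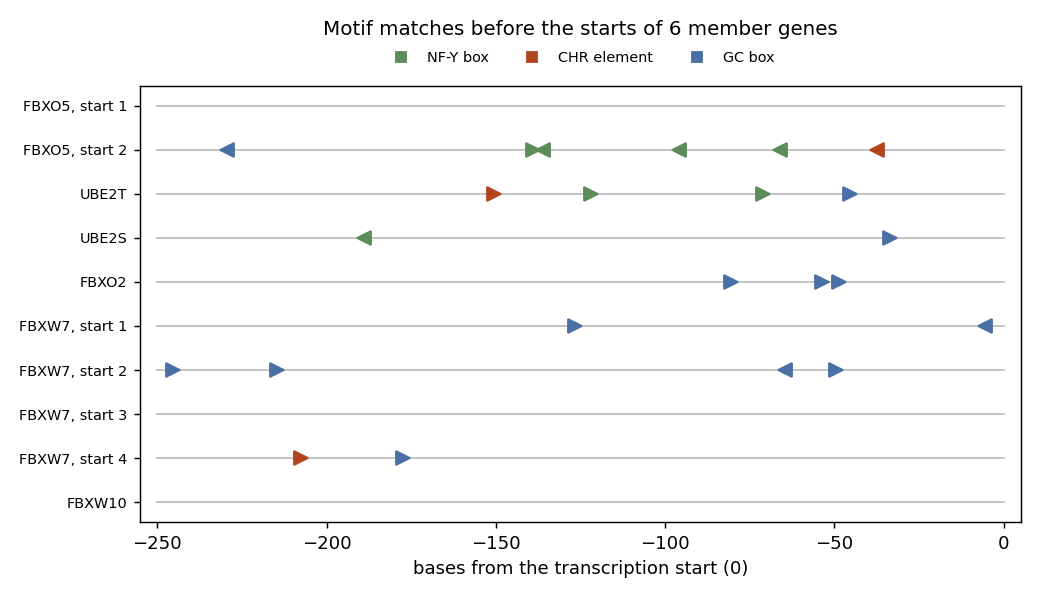
Matches to the NF-Y box, the CHR element and the GC box in the 250 bases before each of 10 transcription starts of 6 member genes, by distance from the start in bases, with triangles pointing right for the plus sense of the gene and left for the minus sense. Starts of a gene are numbered from the most upstream, and start 2 of FBXO5 carries 4 NF-Y boxes and 1 CHR element while start 1 carries no match.

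FBXO43, known as EMI2, is related to FBXO5 and inhibits the APC/C in the egg, holding it in the second meiotic metaphase. Its transcript ENST00000428847 (5 exons, 2124 coding bases) had 0.167 FPKM with paclitaxel and 1.28 FPKM with DMSO. This was 7.66-fold lower, but at levels so low that the difference on the log2(FPKM + 1) scale was -0.97, the smallest of the lower members.

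The F-box genes that were higher with paclitaxel were FBXW7, FBXO2, FBXW10 and FBXO32. FBXW7 is the SCF receptor for cyclin E, MYC, JUN and NOTCH and lies at chr4:152321259-152536101 on the minus strand. Its listed transcript, ENST00000263981, had 3.24 FPKM with paclitaxel and 0.211 FPKM with DMSO. This was 15.4-fold higher, the largest fold of the higher members, from a level in the DMSO library that was the lowest of all members there. The transcript was not found in GENCODE 44, and the other transcripts of the gene have no value here, so the level of the whole gene is not known. FBXO2 binds proteins with N-linked glycans in the degradation of misfolded glycoproteins. Its transcript ENST00000354287 (chr1:11648387-11654429 on the minus strand) had 33.4 FPKM with paclitaxel and 7.79 FPKM with DMSO, which was 4.29-fold higher. It was the most abundant of the higher members in both libraries, and its difference of 1.97 on the log2(FPKM + 1) scale was the largest among them.

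FBXW10 is an F-box protein with WD40 repeats. Its transcript ENST00000308799 (12 exons, 3183 coding bases, chr17:18744026-18779349 on the plus strand) had 5.08 FPKM with paclitaxel and 0.832 FPKM with DMSO, which was 6.11-fold higher. FBXO32 is atrogin-1, known from wasting muscle. Its transcript ENST00000517956 (9 exons, 1065 coding bases) had 7.12 FPKM with paclitaxel and 2.11 FPKM with DMSO, which was 3.37-fold higher and the smallest fold of all members. FBXO5, FBXO43 and UBE2C-203 were under 1 FPKM in the paclitaxel library, FBXW7 and FBXW10 were under 1 FPKM in the DMSO library, and the other 6 transcripts had at least 1 FPKM in both. The folds of those 5 transcripts rest on a low level in one library.

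The members were then set beside the complexes they act in, by lists of genes known for each role and chosen with earlier results of these data known. No list was tested. None of 9 E1 genes and none of 11 genes of the SCF core and its regulators had a listed transcript. Of 16 subunits and activators of the APC/C, 1 was listed: the activator CDC20, with 7.92 FPKM with paclitaxel and 124.9 FPKM with DMSO. Transcripts of only 812 genes were listed, and of the protein-coding genes that match the rule 9% had a listed transcript. Few or none listed in a short list is therefore not a result about that list. Of 6 genes of the mitotic checkpoint, which holds CDC20 inactive until chromosomes are attached, 4 were listed and all 4 were lower. This is a small number of genes, beside 53.9% lower and 46.1% higher of all listed transcripts. The checkpoint kinase BUB1 had 3.64 FPKM with paclitaxel and 36.2 FPKM with DMSO. BUB1B, an inhibitory subunit, had 2.56 FPKM with paclitaxel and 19.9 FPKM with DMSO. The kinase TTK had 1.61 FPKM with paclitaxel and 15.2 FPKM with DMSO, and MAD2L1 had 2.09 FPKM with paclitaxel and 13.5 FPKM with DMSO.

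Of 20 proteins known as APC/C substrates 18 had a listed transcript, and all 18 were lower with paclitaxel. Among all listed transcripts, counted by transcript and not by gene, 53.9% were lower. This list too was chosen with earlier results of these data known, so its counts are a description and cannot show an enrichment. The median log2(FPKM + 1) difference of the 18 genes was -2.85. The mitotic kinase PLK1 had 5.45 FPKM with paclitaxel and 86.0 FPKM with DMSO. The cyclin CCNB2 had 6.24 FPKM with paclitaxel and 84.5 FPKM with DMSO, and CCNA2 had 2.56 FPKM with paclitaxel and 40.3 FPKM with DMSO. BIRC5, the survivin subunit of the chromosomal passenger complex, had 5.80 FPKM with paclitaxel and 79.6 FPKM with DMSO. Over all 535 lower transcripts of the table the median was -2.15. That median counts every transcript of a gene, while the list counts only the most abundant of each gene, so they are not like measures.

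Of 17 proteins known as SCF substrates 6 were listed, 5 lower and 1 higher. These are small numbers beside the 53.9% lower and 46.1% higher of all transcripts. The replication licensing factor CDT1 had 1.78 FPKM with paclitaxel and 19.8 FPKM with DMSO. The transcription factor E2F1 had 2.67 FPKM with paclitaxel and 24.2 FPKM with DMSO, and the checkpoint adaptor CLSPN had 0.683 FPKM with paclitaxel and 10.5 FPKM with DMSO. The 1 higher gene was CDKN1A, the cyclin-dependent kinase inhibitor p21, at a log2 ratio of 2.32. In the Fanconi anaemia pathway, in which UBE2T acts, 4 of 10 genes were listed and all 4 were lower, a small number beside the 53.9% of all transcripts. FANCD2, the protein that UBE2T modifies, had 2.01 FPKM with paclitaxel and 9.28 FPKM with DMSO. Its partner FANCI had 5.91 FPKM with paclitaxel and 27.3 FPKM with DMSO. FANCG and FANCA, of the core complex that acts with UBE2T, had 4.97 and 1.26 FPKM in the paclitaxel library and 22.0 and 4.90 FPKM in the DMSO library. Of 13 F-box or E2-like genes with symbols outside the rule, 2 were listed, both lower, again a small number beside the 53.9%. CCNF, or cyclin F, is an F-box protein and had 2.18 FPKM with paclitaxel and 14.6 FPKM with DMSO. SKP2, the F-box receptor for the inhibitor p27, had 1.07 FPKM with paclitaxel and 4.64 FPKM with DMSO.

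**Figure D4:**
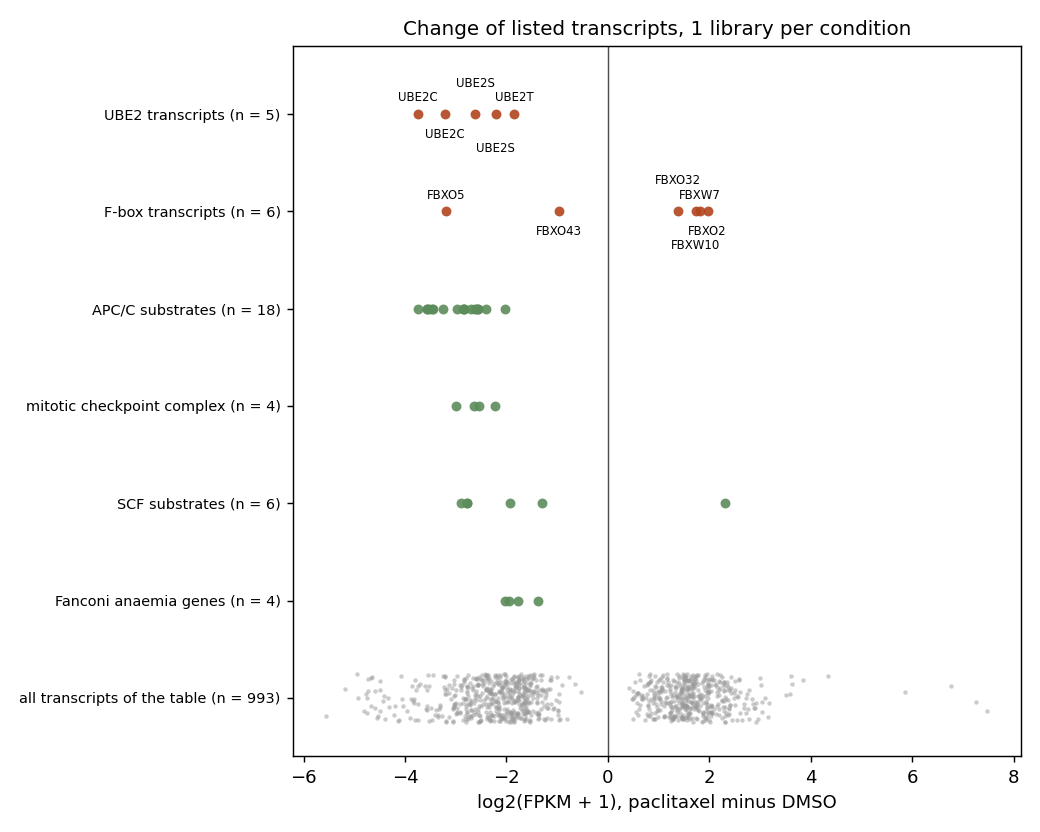
Difference of log2(FPKM + 1), paclitaxel minus DMSO, with 1 point per transcript for the UBE2 and F-box members and for all 993 transcripts, and 1 point per gene (the most abundant transcript) for the lists. The 5 UBE2 transcripts and all 18 listed APC/C substrates lie below 0, and the 6 F-box transcripts lie on both sides. The band without points around 0 reflects a table whose transcripts above 0 in both libraries differ at least 2.87-fold. On this scale low-level transcripts lie nearer 0 than that fold, so the edge of the band does not mark it.

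Of the markers for the cell line and for other cells, KRT19, an epithelial keratin, was the only 1 of 6 lung epithelial markers listed, at 107 FPKM with paclitaxel and 22.9 FPKM with DMSO. None of 6 immune markers and none of 6 fibroblast or endothelial markers was listed. Of 7 red blood cell markers, 3 were listed (HBA1, HBA2 and HBB), with a summed level of 458.1 FPKM with paclitaxel and 0.118 FPKM with DMSO, where HBB was listed at 0. Their part in the differences above was not tested. A marker that is not listed has no level here.

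The table of skipped exons was used only for which exons it lists, since its values per library name no condition. An event is an exon together with the exons on either side of it. The 257 member events held 205 distinct exons, all of which are annotated in GENCODE 44. The UBE2 family had 93 exons of 28 genes, FBXO genes had 60 exons of 25 genes, FBXL genes had 28 exons of 9 genes and FBXW genes had 24 exons of 7 genes. A member gene had a median of 3 listed exons, against 2 over all genes of the table, and 3.72 events on average, against 3.60. An exon was part of several events in 39 of 205 cases (19.0%), against 12.4% of all exons.

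Exons of the members had a median length of 113 bases (quartiles 84 and 164), against 121 bases over all 31197 exons of the table (quartiles 87 and 164). The length was divisible by 3, so that skipping keeps the reading frame where the exon is coding, in 79 exons (38.5%), against 41.1% of all exons. By family this share was 33.3% for UBE2, 46.7% for FBXO, 32.1% for FBXL and 45.8% for FBXW genes. Exons with both ends equal to those of an annotated coding stretch made up 68.8% of the member exons and 71.5% of all exons. Of the member exons 13.2% lay outside any coding sequence, against 13.6% of all. Of 205 exons, 199 were flanked in the genome by AG before and GT after, and the other 6 by AG and GC. Their base composition ran from 27.8% G and C in an exon of UBE2B to 93.8% in an exon of UBE2E3, with a median of 45.0%. In length, frame and position the members thus lay near the table as a whole, and no difference was tested.

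**Figure D5:**
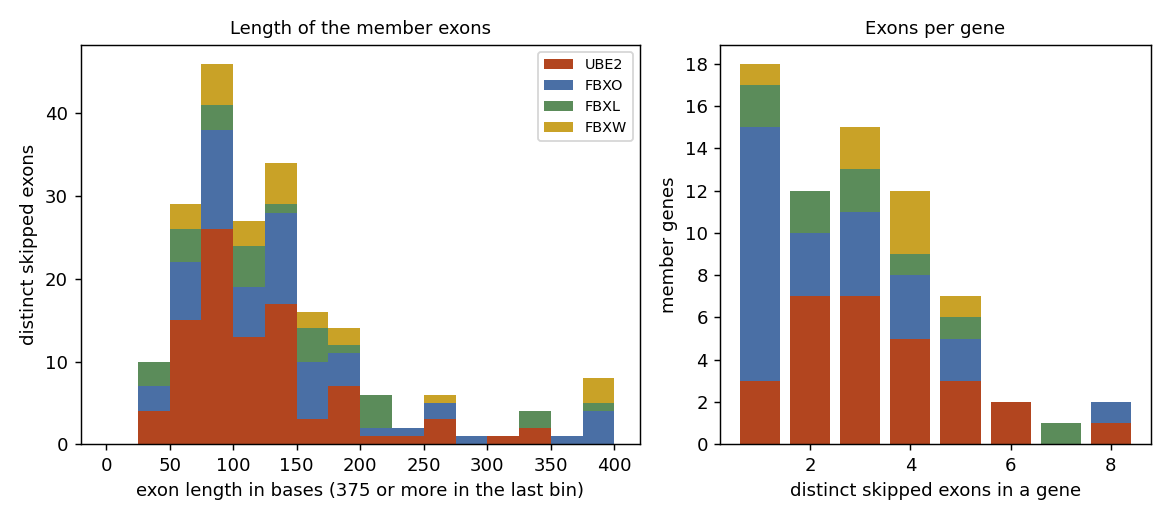
Left, number of distinct skipped exons of member genes by length in bases, stacked by family, with the longest exons gathered in the last bin. Right, number of member genes by the number of distinct skipped exons listed, with 18 genes at 1 exon and FBXO18 and UBE2V1 at 8.

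The members with most listed exons were FBXO18 (8 exons, 10 events) and UBE2V1 (8 exons, 14 events). FBXO18, now named FBH1, is a DNA helicase with an F-box, and UBE2V1 is an inactive E2 variant that pairs with UBE2N to build chains linked through lysine 63. FBXL5, an iron sensor that directs the destruction of the iron regulatory protein IREB2, had 7 exons. UBE2J2, an E2 of the endoplasmic reticulum, and UBE2Q2 had 6 exons each. At the other end 18 genes had 1 listed exon. The shortest exons were that of UBE2C and exons of 30 bases listed under UBE2F-SCLY, a read-through of neighbouring genes, and under FBXO44. GENCODE 44 has the 30-base exon of UBE2F-SCLY in transcripts of UBE2F as well, such as UBE2F-201. The UBE2 exons also include those of 107, 84 and 76 bases listed under UBE2F-SCLY. GENCODE 44 has these in UBE2F-SCLY-202 and in no transcript of UBE2F. The longest were exons of 2050 bases in FBXO30, 735 bases in FBXO38 and 596 bases in FBXO18.

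Of the 9 genes with a listed transcript, 6 also had listed skipped exons. Beside UBE2C, UBE2S and UBE2T, these were FBXW10 with 4 coding exons of 416, 110, 159 and 272 bases, FBXW7 with a coding exon of 83 bases and exons of 50 and 93 bases outside the coding sequence, and FBXO32 with a coding exon of 183 bases. Among the coding exons of these F-box genes, the exons of 159 and 183 bases have lengths divisible by 3. FBXO2, FBXO5 and FBXO43 had no listed skipped exon.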

How the data were processed

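RNA of A549 cells was sequenced as 1 library per condition. CASAVA 1.8.2, TopHat, Cufflinks and hg38 are named in the processing notes of the submitters, and the study's methods name MapSplice for mapping. FPKM values were estimated per transcript by the authors with Cufflinks, and the deposited table keeps only transcripts that passed their test. These FPKM keep no whole reads, so depth is unknown and counting error could not be given. The deposited skipped-exon table has the layout of MATS, while the methods name MISO. In it, 6 columns of per-library values carry no condition name and were not used. The 6 columns holding the authors' own comparisons (fold change, inclusion difference, p-value, q-value or FDR) were not used either. The column of the treated cells was read as paclitaxel, the only treated sample.

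Ratios and differences of log2(FPKM + 1) were computed with Python 3.11.15 and pandas 2.3.3. Exons were matched to GENCODE 44 and sequences read from hg38 or, for promoters, RefSeq. Of 993 transcripts, 948 were found in GENCODE 44. UBE2C, FBXO32 and FBXO43 had no promoter entry. Named were every member with a listed transcript, the 5 genes with most skipped exons, the 3 shortest and 3 longest exons, and up to 4 genes of each list with the largest difference. The members and gene lists were chosen with earlier results of these data known.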

Additional observations from a re-analysis of the deposited data

How the results depend on the processing

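The counts of 7 lower and 4 higher member transcripts ranged from 5 to 9 and from 3 to 4 over a fold of 4, a minimum of 1 FPKM, a ratio of FPKM + 1, 1 transcript or the summed transcripts per gene, and F-box and E2-like genes of other symbols added. The median log2 difference of the members, -1.85, was -2.24 with log2(FPKM + 0.1), -2.24 with no pseudocount and -0.97 with 1 transcript per gene, which leaves 5 lower and 4 higher values. Over all genes of the table that last median was also -0.97, a comparison added after seeing the data. The member value of -0.97 is that of FBXO43 alone. The median exon length, 113 bases over distinct exons, was 117 bases over events, and 38.5% of lengths were divisible by 3 either way. No paired analysis was possible because each condition has 1 library, and for the same reason no library could be left out. The levels rest on 1 library each, with unknown depth, and folds of transcripts under 1 FPKM are the least certain.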

Other observations

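Within the member genes, 28 pairs of listed skipped exons, in 21 genes, shared one end and differed at the other. In 13 of the 28 pairs the lengths differed by a multiple of 3. Exons in the most events, 4 each, were those of 165 bases in FBXO22, 102 bases in FBXW11 and 179 bases in UBE2G1, which were chosen after their values were seen.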
